A study of Bos taurus with 10 samples.

Results

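The genes described here are 33 members of the cholesterol and fatty acid synthesis pathways, taken by symbol from a table of 21130 genes measured in 10 libraries. All 33 symbols had exactly 1 row, and all 33 passed the filter on low values (at least 1 FPKM in at least 3 libraries). They fall into 3 sets by role: 18 enzymes of the sterol arm, 8 enzymes of the fatty acid arm, and 7 genes of sterol sensing and of the control of SREBP, the sterol regulatory element-binding proteins. The labels describe muscle RNA of cattle aged 24 months, with 7 libraries of genotype MSTN+/-, in which 1 copy of the gene of myostatin, a brake on muscle growth, is changed, and 3 libraries of wild type. The series was designed to compare those genotypes. No label gives a number of animals, a sex, a breed, a batch or a treatment, or how the MSTN allele was made. P-values therefore measure the spread between libraries, which may be technical.

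Cholesterol is built from acetyl-CoA through mevalonate, isoprenoid diphosphates and squalene, and squalene is then closed into lanosterol and trimmed to cholesterol. Fatty acids start from citrate, which ATP citrate lyase splits into acetyl-CoA, and acetyl-CoA carboxylase and fatty acid synthase then build the chain that elongases lengthen and desaturases modify. SREBP transcription factors drive both arms: when membranes are poor in sterol, the escort protein SCAP carries SREBP out of the endoplasmic reticulum for cleavage, and INSIG proteins hold the complex back when sterol is plentiful. SREBP-2, from Srebf2, acts mainly on sterol genes, and SREBP-1, from Srebf1, mainly on fatty acid genes.

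The rows do not carry cattle annotation. Of the 33 members, 28 were described as Mus musculus transcripts and 5 had a blank description. The best protein match was a mouse protein for 32, the exception being Insig2, whose match was a rat protein. None of the 33 gene identifiers and 0 of 44 transcript accessions were in the RefSeq cattle gene table. Muscle transcripts were scarce: the 10 skeletal muscle markers summed to 9.61 to 16.3 FPKM in the MSTN+/- libraries and to 12.6 to 26.4 FPKM in the wild-type libraries, and Ttn, Myh4 and Myl1 stayed below 1 FPKM in all 10. FPKM, the authors' unit, counts fragments relative to transcript length and to the mapped fragments of the library. Groups are therefore named by their labels only, and no difference is ascribed to MSTN, to cattle or to muscle.

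The wild-type libraries did not form a single group. The 10 pluripotent cell markers summed to 911 to 1554 FPKM in the MSTN+/- libraries, and to 2.31, 2643 and 2993 FPKM among the wild type (replicates 1, 2 and 3). The 10 fibroblast markers summed to 2860 to 5957 FPKM in the MSTN+/- libraries, and to 6420, 396.9 and 279.6 FPKM among the wild type. Pou5f1 of the pluripotent list spanned 633 to 848 FPKM among the MSTN+/- libraries, whereas the wild type had 0.38, 345.6 and 533.4 FPKM. It was the only 1 of the 10 with all MSTN+/- values above all wild-type values. For 8 of the 10, all but Pou5f1 and Sox2, wild-type replicates 2 and 3 lay above the MSTN+/- range. Replicate 1 lay below that range for all 10. Nanog, 1 of those 8, spanned 5.95 to 55.0 FPKM among the MSTN+/- libraries, whereas the wild type had 0.91, 233.8 and 176.9 FPKM. Fat and liver are known for strong lipid synthesis. The adipocyte markers Adipoq, Plin1, Cidec, Lep, Pparg and Retn and all 7 hepatocyte markers stayed below 1 FPKM throughout, and the adipocyte list (9 of 10 in the table) summed to 5.86 to 51.9 FPKM, of which Fabp4 made up 2.43 to 44.6 FPKM. Lipe of that list, a lipase also found outside fat, was higher in the MSTN+/- libraries, at 5.47 to 7.05 FPKM beside 1.68, 3.87 and 2.46 FPKM (log2 difference 1.03, limma adjusted p = 0.00091), and Plin4, too low to be tested, was at 0.58 to 1.38 FPKM beside 0.44, 0.05 and 0.12 FPKM. Their part in the results below was not tested. Wild-type values are given in the order of replicates 1, 2 and 3 throughout, and replicate 1 is described apart from replicates 2 and 3 wherever they disagree. Where replicate 1 is the sole wild-type library, p-values rest on the spread among the MSTN+/- libraries only. They do not measure the spread of the wild type. In such bulk samples, fewer cells of a type and less RNA per cell cannot be told apart. The summed FPKM of a library lay between 402716, its value in wild-type replicate 1, and 464418, and relative depth, from the steps of low values, ran from 1 to 1.19 times that of MSTN+/- replicate 1.

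In the sterol arm, more enzymes were lower than higher in the MSTN+/- libraries. Across all 14047 genes tested, limma called 31.8% higher and 12.8% lower (adjusted p under 0.05). Of the 18 sterol enzymes it called 1 higher and 9 lower, and 8 did not pass. The lower calls were Acat2, Hmgcs1, Pmvk, Mvd, Idi1, Fdps, Sqle, Lss and Msmo1, and the higher call was Ebp. The median log2 difference of the arm was -0.44, beside 0.17 for all genes tested. With median-of-ratios, TPM and quantile scaling the arm's median was -0.65, -0.50 and -0.49, beside -0.01, 0.12 and -0.10 for all genes. All 7 MSTN+/- values lay below all 3 wild-type values for 7 sterol enzymes, where 6.86% of genes tested did so, and above them for 1, where 25.2% did so. Library weights were 0.0352 for wild-type replicate 1, 2.08 for replicate 2 and 0.643 for replicate 3, so replicate 1 counted for little in that fit. The median was then -0.25, and Mvd (-0.23, limma adjusted p = 0.0713), Fdps (-0.29, 0.143) and Msmo1 (-0.27, 0.128) were no longer called. Leaving out wild-type replicate 3 cut the lower calls to 6, in a fit that called 791 of 13869 genes lower. Leaving out wild-type replicate 1 raised the higher calls to 3, beside 42.2% of genes tested. The lower calls were then 9, beside 31.9%.

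**Figure D1:**
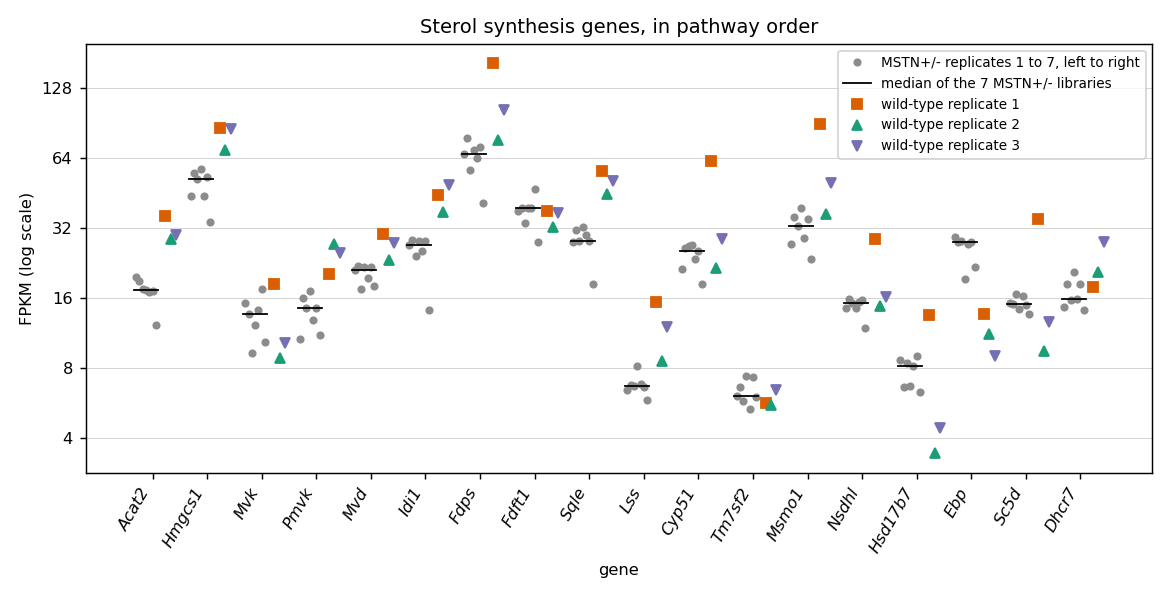
FPKM (log axis) of the 18 sterol enzymes in pathway order, with a grey point for each of the 7 MSTN+/- libraries, a line at their median and a coloured symbol for each wild-type library. All 3 wild-type symbols lie above the grey points for 7 genes, among them Acat2, Sqle and Lss, and below them for Ebp, while wild-type replicate 1 stands far above the others for Cyp51, Msmo1, Nsdhl and Sc5d.

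The pathway opens with Acat2 (gene 110460), the cytosolic thiolase that joins acetyl-CoA units, whose reads a close gene copy may share. It was at 12.3 FPKM in the lowest, 17.4 in the median and 19.6 in the highest MSTN+/- library, with wild-type values of 36.1, 28.6 and 29.9 FPKM. The groups did not overlap, and the log2 difference was -0.85 (SE 0.14, limma adjusted p = 0.00111; SE is the standard error). Hmgcs1 (gene 208715), which makes HMG-CoA, ran from 33.9 through a median of 51.9 to 57.4 FPKM in the MSTN+/- libraries, with wild-type values of 86.4, 69.4 and 85.5 FPKM. The log2 difference came to -0.73 (SE 0.16, limma adjusted p = 0.00555), again without overlap. Both calls held under every alternative run.

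The mevalonate steps that follow were uneven. Pmvk (gene 68603), phosphomevalonate kinase, ran from 10.6 through 14.4 to 17.2 FPKM, with wild-type values of 20.3, 27.4 and 25.02 FPKM. Its log2 difference was -0.78 (SE 0.16, limma adjusted p = 0.00376). With replicate 1 as the sole wild-type library it was -0.54 and missed the threshold (adjusted p = 0.0822). Mvd, the decarboxylase that makes isopentenyl diphosphate, was at 17.5 to 21.9 FPKM against 30.2, 23.3 and 27.6 FPKM. That log2 difference of -0.40 (limma adjusted p = 0.0190) missed the threshold without wild-type replicate 3 (0.0648). Mvk, the kinase before Pmvk, was not called: its values of 9.25 to 17.5 FPKM spanned wild-type replicate 3, at 10.2 FPKM, while replicates 1 and 2 were at 18.4 and 8.78 FPKM. Mvk therefore did not follow Pmvk and Mvd.

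Isoprenoid assembly gave the highest level of the arm. Idi1 (gene 319554), which isomerises isopentenyl diphosphate, ran from 14.1 through 26.95 to 28.4 FPKM, with wild-type values of 44.6, 37.4 and 49.1 FPKM, with no overlap. The log2 difference came to -0.80 (SE 0.20, limma adjusted p = 0.0101). With replicate 1 as the sole wild-type library it missed the threshold (-0.84, adjusted p = 0.0526). Fdps (gene 110196), farnesyl diphosphate synthase, had the highest median of the sterol enzymes, at 66.9 FPKM within 41.2 to 78.2 FPKM. Its wild-type values were 163.7, 76.6 and 102.8 FPKM, so that replicate 2 lay inside the MSTN+/- range. The log2 difference of -0.78 (SE 0.24, limma adjusted p = 0.0241) became -0.49 without wild-type replicate 1 (0.0548) and -0.82 without replicate 3 (0.0591), both above the 0.05 limit. Fdft1, squalene synthase, showed no such difference: wild-type values of 37.9, 32.4 and 37.2 FPKM all lay within its 27.7 to 47.1 FPKM.

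Both enzymes that turn squalene into lanosterol were lower in the MSTN+/- libraries. Sqle (gene 20775), squalene epoxidase and a known control point of the pathway, ran from 18.4 through 28.3 to 32.4 FPKM, with wild-type values of 56.5, 44.8 and 51.2 FPKM. Its log2 difference was -0.85 (SE 0.16, limma adjusted p = 0.00239). Lss (gene 16987), lanosterol synthase, ran from 5.81 through 6.68 to 8.12 FPKM, with wild-type values of 15.3, 8.52 and 11.9 FPKM, a log2 difference of -0.71 (SE 0.16, limma adjusted p = 0.00522). Neither gene overlapped between groups, and both calls held under every alternative run.

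For Cyp51, Msmo1 and Nsdhl wild-type replicate 1 stood well above replicates 2 and 3, as it did for Fdps. Cyp51 (gene 13121), the lanosterol demethylase, ran from 18.4 through 25.6 to 26.96 FPKM, with wild-type values of 61.98, 21.5 and 28.6 FPKM, so that only replicate 1 stood well above the range. It was not called (log2 difference -0.48 ± 0.27, SE, limma adjusted p = 0.165), but was without wild-type replicate 2 (-0.79, adjusted p = 0.0420), while leaving out replicate 1 brought it to -0.0497 (0.780). Msmo1, which oxidises the methyl groups at carbon 4, was at 23.5 to 38.9 FPKM against 90.0, 36.7 and 49.9 FPKM. Its log2 difference of -0.79 (SE 0.25, limma adjusted p = 0.0256) became -0.44 without wild-type replicate 1 (0.0489), and the call was lost without replicate 3 (-0.86, 0.0548). Nsdhl, the dehydrogenase of the same step, was at 11.9 to 15.8 FPKM against 28.6, 14.8 and 16.2 FPKM. Nsdhl was called only with median-of-ratios scaling (-0.56, limma adjusted p = 0.0464) and when wild-type replicate 1 stood alone (-0.92, adjusted p = 0.000871). When that library was left out the value was -0.0782.

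For Sc5d and Hsd17b7 the wild-type libraries lay on opposite sides of the MSTN+/- range. Sc5d, which sets the double bond at carbon 5, spanned 13.6 to 16.6 FPKM among the MSTN+/- libraries, whereas replicate 1 of the wild type reached 34.9 FPKM and its other replicates 9.49 and 12.5 FPKM. Hsd17b7, the ketosteroid reductase of the demethylation complex, was at 6.31 to 8.96 FPKM, with wild-type values of 13.6, 3.43 and 4.38 FPKM. With replicate 1 as the sole wild-type library their log2 differences were -1.15 and -0.76. Once that library was left out they were 0.44 and 0.82 (limma adjusted p = 0.00411 and 0.00052). Neither gene passed with all 3 wild-type libraries.

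Ebp was the exception of the arm. Ebp (gene 13595), the sterol isomerase that shifts the ring double bond, ran from 19.4 through 27.7 to 29.4 FPKM in the MSTN+/- libraries, with wild-type values of 13.7, 11.2 and 8.99 FPKM. The log2 difference was 1.13 (SE 0.16, limma adjusted p = 0.000402), with no overlap, and the call held under every alternative run. Tm7sf2, a sterol reductase, was not called, and its wild-type values of 5.64, 5.54 and 6.44 FPKM all lay within the MSTN+/- range of 5.32 to 7.34 FPKM. Dhcr7, the last reductase of the pathway, was at 14.3 to 20.7 FPKM against 17.8, 20.8 and 27.9 FPKM. It missed the threshold (log2 difference -0.36, limma adjusted p = 0.0825) and passed it without wild-type replicate 1 (-0.50, adjusted p = 0.0117) and with each of the 3 rescalings (0.00759 to 0.0414), while without replicate 3 it was -0.19 (0.370).

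The sterol arm was split at squalene after the values were seen. All 7 MSTN+/- values lay below all 3 wild-type values for 5 of the 8 enzymes up to squalene. They did so for 2 of the 10 from squalene onward, beside 6.86% of genes tested. They lay above all 3 for 0 up to squalene and for 1 after it, Ebp, beside 25.2%. In wild-type replicate 1 the median ratio to the MSTN+/- median was 1.54 up to squalene and 1.94 after it. In wild-type replicate 2 those ratios were 1.24 and 0.949, and in replicate 3 they were 1.59 and 1.09. The difference between the segments was not tested.

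Among the genes that sense sterol and control SREBP, calls went both ways. Of 7, limma called 2 higher (Scap and Insig2) and 1 lower (Insig1), and 4 did not pass, shares near the 31.8% higher and 12.8% lower among all genes tested. The median log2 difference was 0.45. It came to 0.71 without wild-type replicate 1, to 0.30 without replicate 3 and to -0.03 with replicate 1 as the sole wild-type library. Scap (gene 235623) ran from 25.2 through 28.4 to 29.8 FPKM in the MSTN+/- libraries, with wild-type values of 21.3, 17.7 and 14.3 FPKM. No value overlapped, the log2 difference was 0.62 (SE 0.12, limma adjusted p = 0.00260), and the call held under every alternative run. Higher calls numbered 4 without wild-type replicate 1, where 42.2% of genes tested were called higher. They numbered 1 without replicate 2, where 3504 of 13878 genes were. Lower calls numbered 2 without either of those libraries and 0 without replicate 3, where Srebf2 and Insig1 both missed the threshold. Genes called lower were 31.9% of those tested without replicate 1, 793 of 13878 without replicate 2 and 791 of 13869 without replicate 3.

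Insig1 (gene 231070), itself a known target of SREBP, ran from 21.5 through 26.8 to 30.7 FPKM, with wild-type values of 36.7, 29.4 and 47.4 FPKM. Wild-type replicate 2 lay inside the MSTN+/- range. The log2 difference came to -0.51 (SE 0.15, limma adjusted p = 0.0227). Leaving out wild-type replicate 3, it missed the threshold (-0.34, adjusted p = 0.118), as it did with library weights (-0.31, 0.0684). Insig2 (gene 72999), the form known to be less dependent on SREBP, ran from 8.51 through 9.74 to 11.5 FPKM, with wild-type values of 8.79, 6.22 and 5.10 FPKM. Wild-type replicate 1 lay inside the range and the others below it. Its log2 difference of 0.52 (SE 0.15, limma adjusted p = 0.0170) missed the threshold without wild-type replicate 2 (0.49, adjusted p = 0.0643) and without replicate 3 (0.37, 0.0874). It also missed it with median-of-ratios (0.33, 0.131) and quantile scaling (0.22, 0.245) and against wild-type replicate 1 alone (0.15, 0.422).

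The SREBP genes themselves did not pass with all libraries. Srebf2 (gene 20788) ran from 48.5 through 54.4 to 61.9 FPKM, with wild-type values of 67.3, 60.1 and 79.1 FPKM, with replicate 2 inside the range. Its log2 difference of -0.29 (SE 0.11, limma adjusted p = 0.0595) passed without wild-type replicate 1 (0.0401), without replicate 2 (0.0445) and with median-of-ratios (0.00572) and TPM scaling (0.0364), but not without replicate 3 (-0.19, 0.261). Srebf1 (gene 20787) ran from 20.7 through 26.5 to 31.4 FPKM, with wild-type values of 26.3, 16.4 and 13.2 FPKM. Wild-type replicate 1 was therefore close to the MSTN+/- median, and replicates 2 and 3 were below the range. The log2 difference was 0.50 (SE 0.20, limma adjusted p = 0.0619). It passed when wild-type replicate 1 was left out (0.77, adjusted p = 0.00106), and was 0.30 without replicate 3 (0.289).

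Stard4, a carrier of cholesterol between membranes, and Lpin1, a phosphatidate phosphatase of glycerolipid synthesis, had the lowest MSTN+/- medians of this set. Stard4 (gene 170459) ran from 5.45 through 7.73 to 8.89 FPKM, with wild-type values of 11.5, 2.87 and 5.34 FPKM, above the range in replicate 1 and below it in the others. It was not called (limma adjusted p = 0.351), but passed once wild-type replicate 1 was left out (0.79, adjusted p = 0.00371) and, in the opposite direction, against that library alone (-0.55, 0.0465). Lpin1 (gene 14245) ran from 6.28 through 7.40 to 8.86 FPKM, with wild-type values of 3.49, 5.24 and 7.48 FPKM. It missed the threshold (log2 difference 0.45, limma adjusted p = 0.0684) and passed it without wild-type replicate 3 (0.68, 0.0140), while without replicate 1 it was 0.22 (0.199).

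The fatty acid arm was also divided by step after the values were seen, and the difference between the steps was not tested. All 4 enzymes that make and lengthen the saturated chain were lower in the MSTN+/- libraries. Their groups did not overlap, whereas 6.86% of genes tested had all MSTN+/- values below all wild-type values. None of the 4 desaturases was called. Of the 8, limma therefore called 0 higher and 4 lower, beside 31.8% and 12.8% of all genes tested, and 0 were higher at an unadjusted p under 0.05. The median log2 difference was -0.62, and -0.83, -0.68 and -0.66 with median-of-ratios, TPM and quantile scaling. It shrank to -0.33 without wild-type replicate 1, with 4 genes each way, and to -0.40 with library weights. Without wild-type replicate 1 the higher calls rose to 3, Scd1, Scd2 and Fads1, and the lower calls stayed at 4. In that fit limma called 42.2% of genes tested higher and 31.9% lower.

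**Figure D2:**
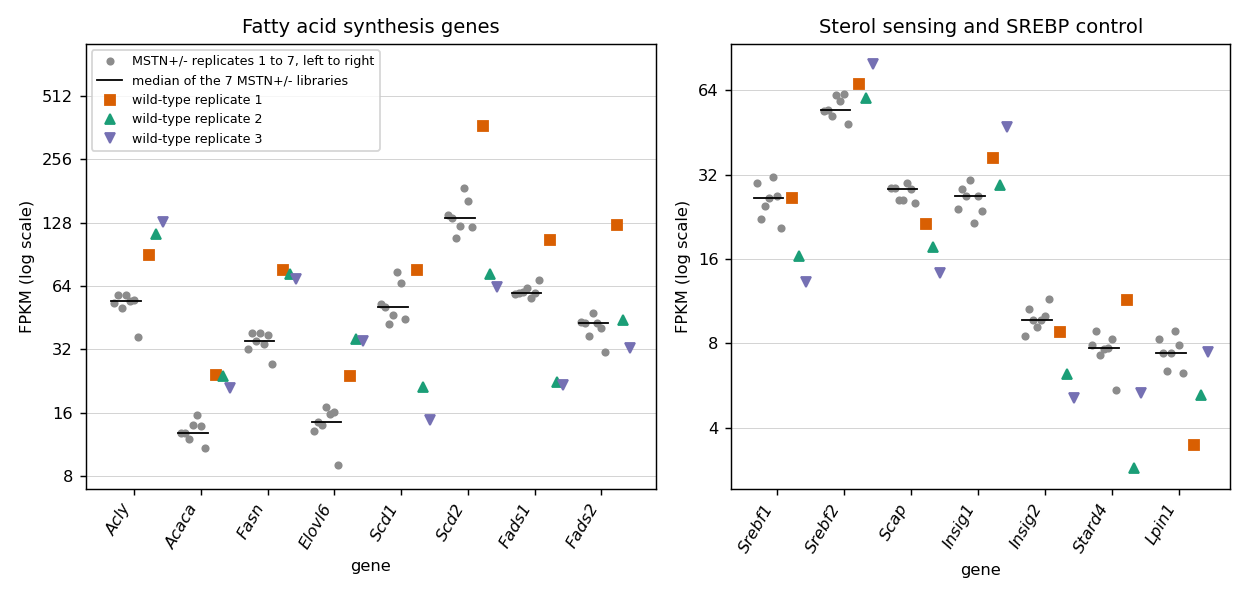
FPKM (log axis) of the 8 fatty acid synthesis genes (left) and of the 7 genes of sterol sensing and SREBP control (right), with grey points for the 7 MSTN+/- libraries, a line at their median and a coloured symbol for each wild-type library. All 3 wild-type symbols lie above the grey points for Acly, Acaca, Fasn and Elovl6, whereas for Scd1, Scd2 and Fads1 wild-type replicate 1 lies above and replicates 2 and 3 below.

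Acly (gene 104112), ATP citrate lyase, ran from 36.5 through 54.5 to 58.1 FPKM in the MSTN+/- libraries, with wild-type values of 89.7, 113.5 and 129.2 FPKM. Its log2 difference was -1.07 (SE 0.16, limma adjusted p = 0.000558). Acaca (gene 107476), acetyl-CoA carboxylase, the committed step, ran from 10.9 through 12.9 to 15.6 FPKM, with wild-type values of 24.3, 24.0 and 21.1 FPKM, a log2 difference of -0.77 (SE 0.12, limma adjusted p = 0.000571). The 3 wild-type libraries lay close together for this gene, unlike for Cyp51, Msmo1 and Sc5d of the sterol arm.

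Fasn (gene 14104), fatty acid synthase, was the most even of the set. It ran from 27.2 through 35.1 to 38.2 FPKM in the MSTN+/- libraries, with wild-type values of 76.1, 72.6 and 68.9 FPKM, 34.6 ± 3.98 (SD, n = 7) against 72.5 ± 3.62 FPKM (SD, n = 3). The log2 difference was -1.05 (SE 0.12, limma adjusted p = 8.48e-05). Elovl6 (gene 170439), which extends palmitate to stearate, ran from 9.03 through 14.6 to 16.99 FPKM, with wild-type values of 23.9, 35.96 and 35.1 FPKM, a log2 difference of -1.10 (SE 0.19, limma adjusted p = 0.00146). Here wild-type replicate 1 was the lowest of the 3. All 4 calls held under every alternative run.

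For 3 of the 4 desaturases, Scd1, Scd2 and Fads1, wild-type replicate 1 lay above the MSTN+/- range and replicates 2 and 3 below it. The same positions were seen for Sc5d, Hsd17b7 and Stard4 and, outside the members, for Elovl1, Aacs and Hsd17b12. They were not limited to lipid genes, since 6 of the 10 fibroblast markers had them: Col1a1, Pdgfra, Pdgfrb, Thy1, Postn and Fbln2. For the remaining fibroblast markers replicate 1 lay within the range for 2 and below it for 2. No share of all genes tested with these positions was computed. Scd1 (gene 20249) and Scd2 (gene 20250), which put the double bond into stearate, share sequence, so reads may have been split between them. Scd1 ran from 42.1 through 50.97 to 74.4 FPKM, with wild-type values of 76.2, 21.3 and 14.9 FPKM. Scd2, with the highest MSTN+/- median of the 33 members, ran from 107.6 through 133.9 to 186.1 FPKM, with wild-type values of 368.9, 73.0 and 63.6 FPKM. For both genes wild-type replicate 1 lay above every MSTN+/- library, and replicates 2 and 3 lay below every one. With all libraries their log2 differences were 0.84 and 0.19 (SE 0.41 and 0.46, limma adjusted p = 0.114 and 0.752). Once wild-type replicate 1 was left out they were 1.52 and 0.997 (limma adjusted p = 0.000104 and 0.000516), and against it alone -0.52 and -1.42 (0.150 and 0.00152). Without replicate 3 they were 0.38 and -0.26 (0.494 and 0.704).

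Fads1 and Fads2, neighbours in the synthesis of long polyunsaturated fatty acids, differed in wild-type replicates 2 and 3. Fads1 (gene 76267), the delta-5 desaturase, ran from 56.0 through 59.3 to 68.3 FPKM, with wild-type values of 105.4, 22.5 and 21.8 FPKM. The log2 difference came to 0.67 (SE 0.40, limma adjusted p = 0.187). It was 1.41 once wild-type replicate 1 was left out (adjusted p = 2.62e-07) and -0.79 against it alone (0.000456), and 0.30 without replicate 3 (0.621). Fads2 (gene 56473), the delta-6 desaturase, ran from 31.1 through 42.5 to 47.5 FPKM, with wild-type values of 124.9, 44.1 and 32.7 FPKM. Wild-type replicates 2 and 3 thus fell inside its range, and replicate 1 was 2.94 times the median. Against that library alone the log2 difference was -1.61 (limma adjusted p = 0.000177), and once it was left out 0.0867 (0.622).

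**Figure D3:**
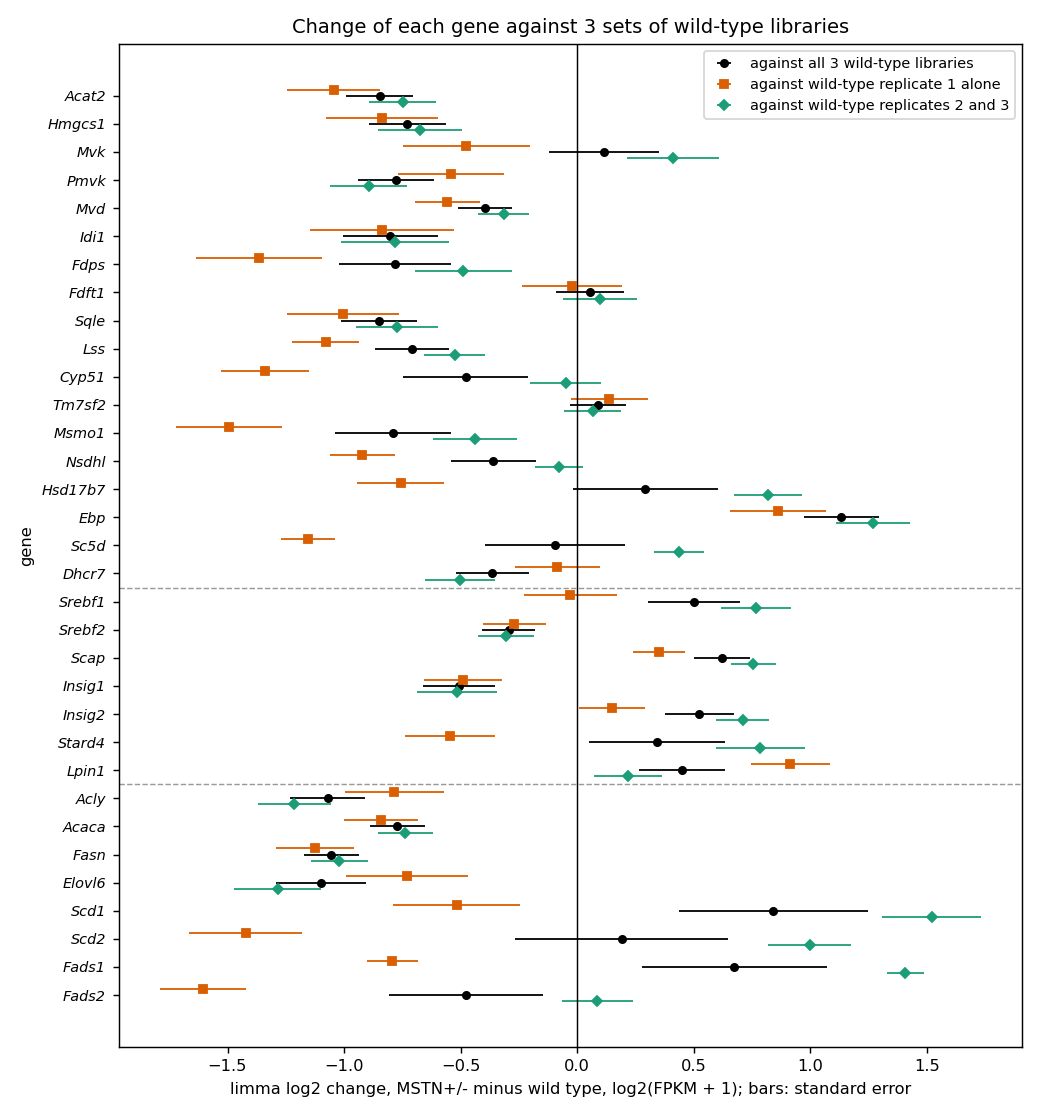
Log2 change of each of the 33 genes in limma, MSTN+/- minus wild type, on the log2(FPKM + 1) scale with bars of 1 standard error, against all 3 wild-type libraries (black circles), wild-type replicate 1 alone (orange squares) and replicates 2 and 3 (green diamonds). Dashed lines part the sterol arm, the control genes and the fatty acid arm. The 3 symbols stay left of 0 together for Acat2, Sqle, Fasn and Acaca, and fall on opposite sides of 0 for Sc5d, Scd1, Scd2 and Fads1.

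Library by library, the excess in wild type was widest in replicate 1. Replicate 1 was above the range of the 7 MSTN+/- libraries for 25 of the 33 members, beside 19.8% of genes tested, and below it for 3, beside 50.0%. The 25 held 14 of 18 sterol enzymes, 3 of 7 control genes and all 8 genes of the fatty acid arm. Replicate 2 was above the range for 12 members (35.6% of genes tested) and below it for 12 (45.4%), a share above the range of about that of all genes. Replicate 3 was above it for 18 (35.8%) and below it for 10 (46.3%). The summed FPKM of the sterol arm was 308.6 to 461.4 in the MSTN+/- libraries and 775.3, 480.6 and 585.4 in wild-type replicates 1, 2 and 3. That of the fatty acid arm was 349.6 to 478.8, and 889.3, 407.0 and 387.1. In the fatty acid arm only replicate 1 exceeded the MSTN+/- libraries in sum, and Scd2 alone was 368.9 FPKM of its total.

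Fits to part of the wild-type libraries were compared by counts. Against wild-type replicate 1 alone, whose spread was assumed to equal that of the 7, limma called 3 members higher (33.7% of genes tested) and 20 lower (10.8%). The lower calls were 11 in the sterol arm, 2 among the control genes and 7 in the fatty acid arm. Against replicates 2 and 3, limma called 10 members higher (42.2%) and 15 lower (31.9%), with 9 lower in the sterol arm and 4 in the fatty acid arm. Both fits share the 7 MSTN+/- libraries. The pluripotent and fibroblast marker sums given above also part replicate 1 from replicates 2 and 3, and their part in these results was not tested. No test was made between the wild-type libraries themselves.

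Ratios of paralogs within a library do not depend on its scaling, and all 3 examined parted the labelled groups. Among single genes tested, 25.2% had all MSTN+/- values above all wild-type values and 6.86% had all below. No such share was computed for ratios of other gene pairs. Scd2 was 2.43 to 2.73 times Scd1 in the MSTN+/- libraries, with a median of 2.63, and 4.84, 3.44 and 4.28 times Scd1 in wild-type replicates 1, 2 and 3. Insig1 was 2.06 to 3.35 times Insig2, and 4.17, 4.73 and 9.29 times in the wild-type libraries. Srebf1 was 0.409 to 0.553 of Srebf2, and 0.391, 0.273 and 0.167 in the wild-type libraries, so that replicate 1 lay just under the lowest MSTN+/- value. Differences of the mean log2 ratio, with a pseudocount of 1, were -0.65, -1.03 and 0.80. An exact two-sided permutation test over 120 assignments gave p = 0.00833 for each, also 0.00833 after Benjamini-Hochberg adjustment over the 3 ratios, the smallest p this design allows. The Srebf1 to Srebf2 difference was 0.49 without wild-type replicate 3 (adjusted exact p = 0.0278). The wild-type libraries that disagreed on the level of Scd1 and Scd2 thus lay on the same side of the MSTN+/- libraries in their ratio.

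**Figure D4:**
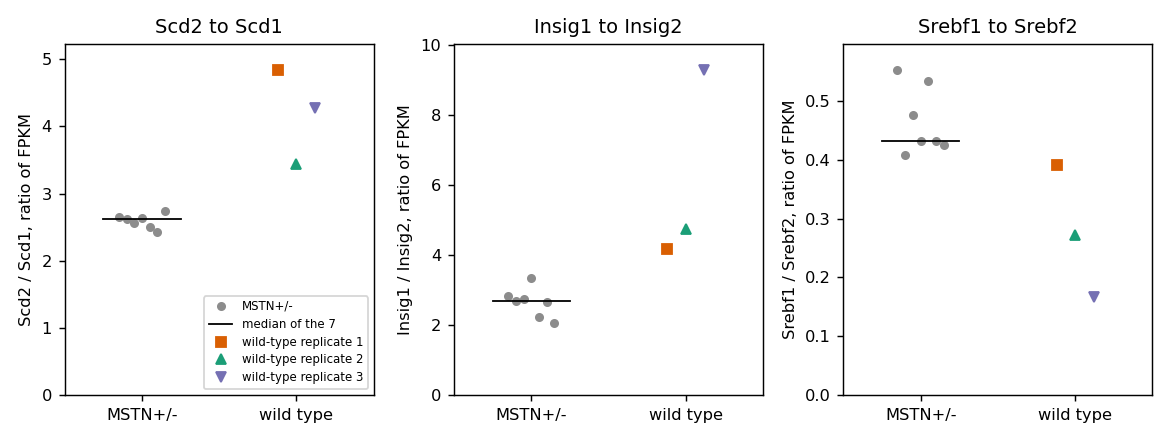
Ratios of FPKM within each library for Scd2 to Scd1, Insig1 to Insig2 and Srebf1 to Srebf2 (linear axes from 0), with grey points for the 7 MSTN+/- libraries, a line at their median and a coloured symbol for each wild-type library. All 3 wild-type libraries lie above the MSTN+/- libraries in the left and middle panels and below them in the right one.

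Within the MSTN+/- group the members fell and rose by library. Replicate 7 was the lowest of the 7 for 23 of the 33 members, beside 28.8% of genes tested: 13 of 18 sterol enzymes, 5 of 7 control genes and 5 of 8 fatty acid genes. Its sterol arm summed to 308.6 FPKM, while the other 6 lay at 409.3 to 461.4 FPKM. Replicate 4 was the highest for 13 members, beside 28.2%, of which 8 were sterol enzymes. Fads1 and Insig2 went the other way and were highest in replicate 7, at 68.3 and 11.5 FPKM. Replicate 7 also had the highest summed fibroblast markers of the 7, at 5957 FPKM, and the part of that in these values was not tested. Leaving it out changed no member's call.

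Other genes of the pathways, from lists of neighbouring steps, transporters and regulators, were called at shares near those of all genes. Of 16 further sterol genes, limma called 6 higher and 2 lower, beside 31.8% and 12.8% of all genes tested. Higher calls numbered 3 without wild-type replicate 2 or 3, beside 3504 of 13878 and 3445 of 13869 genes tested. Lower calls numbered 3 without replicate 1, beside 31.9% of genes tested, and 3 without replicate 2, beside 793 of 13878. The median log2 difference was 0.29, and 0.125 when wild-type replicate 1 was left out. Among the lower calls was Npc1, which exports cholesterol from lysosomes, at 10.4 to 13.8 FPKM against 18.6, 15.4 and 18.9 FPKM (log2 difference -0.57, limma adjusted p = 0.00267). Of the higher calls with a group mean of at least 5 FPKM, the largest were Abca1, which exports cholesterol from the cell, at 28.3 to 45.3 FPKM against 4.13, 3.66 and 2.80 FPKM (3.05, limma adjusted p = 4.21e-07), and Ch25h, a cholesterol hydroxylase, at 4.63 to 13.6 against 6.12, 1.63 and 0.22 FPKM (1.62, 0.0199). Below that level, Nr1h3, a nuclear receptor for oxysterols, was at 4.19 to 5.29 FPKM, was listed at 0 in wild-type replicate 1 and was at 0.22 FPKM in both others (limma adjusted p = 5.22e-07). The Ch25h call was lost without wild-type replicate 2 (1.56, limma adjusted p = 0.0691) or replicate 3 (1.01, 0.102). Abca1 thus differed in the opposite direction to Npc1 and to most called sterol enzymes, while Ebp shared its direction.

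Of 22 further fatty acid genes 19 were tested, and limma called 7 higher and 3 lower, again near the 31.8% and 12.8% of all genes. The median log2 difference was 0.23, and 0.54 when wild-type replicate 1 was left out. Acsl3, which activates fatty acids, was at 7.57 to 10.2 FPKM against 14.1, 17.3 and 18.3 FPKM (log2 difference -0.90, limma adjusted p = 0.000227). Hacd2, an elongation-cycle dehydratase, was at 5.57 to 7.82 against 7.27, 12.6 and 11.7 FPKM (-0.59, limma adjusted p = 0.0147). Hacd2 missed the threshold without wild-type replicate 2 (-0.45, 0.0799) or replicate 3 (-0.50, 0.0700). Its value in wild-type replicate 1 lay within the MSTN+/- range, and against that library alone the log2 difference was -0.14. Elovl1, an elongase of very long chains, was at 40.9 to 58.8 FPKM against 66.5, 13.2 and 9.52 FPKM (1.31, limma adjusted p = 0.0390). Me1, malic enzyme, was at 32.9 to 45.2 against 43.8, 11.7 and 10.5 FPKM (1.002, 0.0406). For both genes wild-type replicates 2 and 3 lay below the MSTN+/- range, while replicate 1 lay above it for Elovl1 and within it for Me1. Neither call was firm: both were lost without wild-type replicate 2 or 3 and without any of MSTN+/- replicates 1, 2, 3, 5, 6 and 7, and the Me1 call also without replicate 4. Without wild-type replicate 3 the values were 0.79 for Elovl1 and 0.65 for Me1 (limma adjusted p = 0.204 for both), and without replicate 1 they were 2.13 and 1.63 (7.47e-07 and 9.71e-07). Higher calls in this list numbered 2 to 11 when single libraries were left out, 2 without wild-type replicate 3, 3 without MSTN+/- replicate 2, 3, 5 or 6, 4 without MSTN+/- replicate 1 or 7 or wild-type replicate 2, and 11 without wild-type replicate 1. Lower calls numbered 1 without wild-type replicate 3 and 2 or 3 otherwise; the remaining one was the elongase Elovl5 (-0.34, limma adjusted p = 0.0379), lost without any of MSTN+/- replicates 1, 2, 3, 5, 6 and 7 or wild-type replicates 1 and 3 (0.0533 to 0.0691).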

How the data were processed

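The authors deposited 1 table of FPKM values (fragments scaled to transcript length and library), per the file headers, with 2 decimals. No aligner, counter, build or filter is given in the sources used here, and 0 columns of per-library values were left unused. Groups come from the genotype label; replicate numbers follow the sample order and only name libraries. Differences were fitted with limma 3.58.1 in R 4.3.3 on log2(FPKM + 1), trend included and without covariates (8 residual degrees of freedom). The 14047 genes that reached 1 FPKM in a minimum of 3 libraries were tested. P-values were Benjamini-Hochberg adjusted over all genes tested, with a threshold of 0.05. The log2(FPKM + 1) scale understates changes of low genes. The fit was repeated with other scalings (quantile, TPM, median-of-ratios), a pseudocount of 0.1, other filters, library weights, each library left out, and wild-type replicate 1 alone. Ratios were compared with exact permutation tests. Total depth is unknown; relative depth is the modal ratio of low single-transcript values, searched up to 8-fold either way. The procedure was tested on simulated data. Named genes were the rate-setting, branch-point and control genes and 3 more per arm by p, and in the other pathway lists the 2 largest called changes each way at a mean of at least 5 FPKM. Msmo1, Mvd, Nsdhl, Sc5d, Hsd17b7, Mvk, Fdft1, Tm7sf2, Dhcr7, Elovl5, Nr1h3, Lipe and Plin4 were described after their values were seen. Some genes of the other pathway lists are not reported here. The members and lists were chosen with earlier results of these data known. No sequence is printed, because the reference used here is of another species than the annotation. Figures were drawn with matplotlib 3.10.9.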

Additional observations from a re-analysis of the deposited data

Results flagged for a closer look

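Among the 7 MSTN+/- libraries, Dixon's gap test (gap to the nearest library divided by the range, critical value 0.568) marked 7 of 39 quantities checked, where chance marks about 1 in 20. In 6 of them replicate 7 was the lowest library. The ratio was 0.649 for Acat2, at 12.3 FPKM with the next library at 17.0 FPKM, and 0.706 for Idi1, at 14.1 FPKM with the next at 24.2 FPKM. It was 0.668 for Sqle, at 18.4 against 27.8 FPKM, 0.658 for Nsdhl, at 11.9 against 14.5 FPKM, and 0.643 for Acly, at 36.5 against 50.4 FPKM. The summed sterol arm gave 0.659, at 308.6 against 409.3 FPKM, and is made of several of these genes. The remaining one was Lss in replicate 4, the highest, at 8.12 FPKM with the next at 6.78 FPKM (0.580).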

How the results depend on the processing

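No paired analysis was possible because the labels give no replicate numbers shared between groups. The 33 members under the alternatives gave 521 results that kept direction and side of the threshold, 31 that newly passed, 16 that no longer passed and 26 that changed sign. No member called with all libraries changed sign.

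With library weights (gene-by-gene estimation, since the default did not converge) the higher calls were 4 in the sterol arm, 5 among control genes and 3 in the fatty acid arm. The lower calls among control genes were 0. Of all 14047 genes tested in that fit, 6020 were higher and 4521 lower. With median-of-ratios scaling control genes had 1 higher and 2 lower, and all genes were 3244 higher and 3234 lower. With quantile normalization control genes had 1 higher, and all genes were 2874 higher and 3851 lower. With TPM rescaling control genes had 2 lower, and all genes were 4011 higher and 2335 lower. Against wild-type replicate 1 alone control genes had 2 lower and the fatty acid arm 7 lower. With all libraries as deposited, all genes were 4468 higher and 1800 lower. The higher share of all calls was 71.3% as deposited, 50.1% with median-of-ratios and 42.7% with quantile scaling, and 57.1% with library weights.

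Leaving out 1 library at a time gave 1 to 3 higher and 6 to 10 lower calls in the sterol arm, 1 to 4 higher and 0 to 2 lower among control genes, and 0 to 3 higher and 4 to 4 lower in the fatty acid arm. All genes ran from 3445 to 5898 higher and from 791 to 4449 lower. The log2 ratio differences ran from -0.79 to -0.52 (Scd2 to Scd1), -1.23 to -0.70 (Insig1 to Insig2) and 0.49 to 1.07 (Srebf1 to Srebf2).

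Sign changes, as log2 differences with the range over libraries left out singly, were as follows. Mvk was -0.0847 with median-of-ratios, -0.0868 with quantile and -0.48 against wild-type replicate 1 alone (left out singly, -0.0812 to 0.411). Fdft1 was -0.15 with median-of-ratios, -0.0018 with TPM and -0.024 against replicate 1 alone (-0.0121 to 0.125). Hsd17b7 was -0.0482 with quantile and -0.76 against replicate 1 alone (-0.0398 to 0.818). Stard4 was -0.55 against replicate 1 alone (-0.0583 to 0.785). Scd2 was -0.0237 with median-of-ratios and -1.42 against replicate 1 alone (-0.26 to 0.997). Tm7sf2 was -0.0955 with median-of-ratios and -0.25 with quantile. Against replicate 1 alone Srebf1 was -0.0293, Scd1 -0.52 and Fads1 -0.79. With library weights Cyp51 was 0.096 and Sc5d 0.53. Left out singly, Sc5d ran from -0.45 to 0.44 and Fads2 from -0.86 to 0.0867. The cause of these changes was not tested. FPKM gives no counts, so no depth-based interval can be set.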
